A study of Homo sapiens with 4 samples.

Results

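The 6 genes described here are FOXA1, HOXB13, GATA2, GRHL2, NR3C1 and SPOP, a set of prostate lineage transcription factors with a steroid hormone receptor and a ubiquitin ligase adaptor. They were chosen by name, and all 8 of their probes were taken, out of 19483 genes that the array's probes could be paired with. GRHL2 and NR3C1 had 2 probes each, and the other 4 genes had 1. For each gene the probe with the highest mean signal is given first.

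Gene expression had been measured in TR9_MeTA14 and TR15_MeTA5 cells, on 1 Agilent one-color array per condition. Both lines derive from LNCaP, a human prostate cancer cell line that grows under androgen, and were cultured in RPMI1640 medium with fetal bovine serum. Each carries a Tet repressor and an NFκB (AD)-MBD construct, in which an activation domain is joined to a methyl-CpG binding domain. Tetracycline switches the construct on, a method called MeTA, and the study used it to find genes silenced by methylation. The 4 groups were TR9_MeTA14 without tetracycline (-Tet), TR9_MeTA14 with tetracycline for 4 days (+Tet), TR15_MeTA5 -Tet and TR15_MeTA5 +Tet. Each line is a separate stable transfectant, and arrays of parental TR9 or TR15 cells with tetracycline were not analysed here, so that tetracycline and the construct cannot be told apart. With 1 array per condition, a difference within a line has no replicate check and no p-value, and no test was made within a line.

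Between 20566 and 24222 of 34127 probes were well above background per array, and no spot was saturated. The 75th percentile of the processed signal, which was used to scale the arrays, lay between 367 and 777. Replicate spots gave a SD of 0.0886 for a log2 ratio of 2 arrays, which covers the spots of an array and not the spread between cultures. Of 11 luminal markers, 11, 11, 9 and 10 were well above background in the order of groups above. KLK3, which encodes prostate-specific antigen, was bright on each array, at 144067, 47017, 135330 and 123470. Not all were bright, with NPY at 28.1, 147, 14.5 and 390 and TRPM8 at 140, 30.0, 11.8 and 19.4. Of 6 basal cell markers, 3 were well above background on at least 1 array (KRT15, ITGB4 and CD44), while KRT5 and TP63 were not on any. All signals below are processed signals in arbitrary units and follow the same order of groups, and log2 changes are those of scaled signals, +Tet over -Tet.

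FOXA1 and GATA2 are pioneer factors, which open chromatin so that steroid hormone receptors can bind there. HOXB13 is a homeobox factor that marks the prostate and shares many of those binding sites, and GRHL2 keeps epithelial genes active. NR3C1 encodes the glucocorticoid receptor, which binds DNA sites much like those of other steroid hormone receptors and is known for its low level in LNCaP. SPOP is the substrate adaptor of a CUL3 ubiquitin ligase that marks coactivators and bromodomain proteins for degradation, and it is often mutated in prostate cancer.

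Because the construct recognises methylated CpG, the CpG content before the transcription starts of these genes is shown first. RefSeq's promoter table, on GRCh38.p14, held 12 windows of 4 of the 6 genes. The 250 bases before each start were used, and the 35116 windows of all genes had a median of 11 CpG. The 5 windows below are each 5′ to 3′ on the minus strand, with each CG in capitals, and were taken because they lie farthest upstream, or for the first NR3C1 window because it opens that gene's CpG-rich group of starts.

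NR3C1, chr5:143405356-143405605: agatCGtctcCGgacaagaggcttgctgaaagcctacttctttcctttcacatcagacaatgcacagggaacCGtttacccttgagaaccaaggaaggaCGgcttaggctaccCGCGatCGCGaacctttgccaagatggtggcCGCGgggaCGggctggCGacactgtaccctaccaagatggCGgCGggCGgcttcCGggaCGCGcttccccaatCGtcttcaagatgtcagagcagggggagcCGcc
NR3C1, chr5:143435513-143435762: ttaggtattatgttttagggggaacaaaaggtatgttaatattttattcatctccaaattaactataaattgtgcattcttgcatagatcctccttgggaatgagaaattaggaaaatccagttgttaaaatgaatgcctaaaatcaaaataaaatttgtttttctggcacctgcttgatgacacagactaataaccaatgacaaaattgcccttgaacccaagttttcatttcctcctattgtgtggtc
FOXA1, chr14:37595250-37595499: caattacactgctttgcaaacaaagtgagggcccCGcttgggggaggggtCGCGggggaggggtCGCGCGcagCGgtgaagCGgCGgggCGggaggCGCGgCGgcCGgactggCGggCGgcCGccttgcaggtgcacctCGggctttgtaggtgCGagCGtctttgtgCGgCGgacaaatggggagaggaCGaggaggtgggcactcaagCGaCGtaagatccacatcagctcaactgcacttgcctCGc
GATA2, chr3:128493202-128493451: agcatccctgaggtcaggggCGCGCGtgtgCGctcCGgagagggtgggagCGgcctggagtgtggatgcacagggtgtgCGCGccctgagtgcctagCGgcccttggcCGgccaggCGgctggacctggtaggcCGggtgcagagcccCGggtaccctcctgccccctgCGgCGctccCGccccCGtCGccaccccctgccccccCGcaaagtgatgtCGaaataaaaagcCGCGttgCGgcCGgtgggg
SPOP, chr17:49678164-49678413: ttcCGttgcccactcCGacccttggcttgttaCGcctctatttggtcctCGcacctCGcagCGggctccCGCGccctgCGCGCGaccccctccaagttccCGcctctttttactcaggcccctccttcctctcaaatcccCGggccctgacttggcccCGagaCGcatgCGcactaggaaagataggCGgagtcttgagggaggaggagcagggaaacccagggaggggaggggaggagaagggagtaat

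The 7 NR3C1 windows held from 0 to 42 CpG, and the pair above held 20 and 0. The FOXA1 window held 26, and 19.6% of all windows held at least as many. The GATA2 window held 24 and the SPOP window 17, which 23.7% and 39.0% of all windows reached. Methylation of these windows was not analysed here.

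FOXA1 had signals of 12379, 9577, 6630 and 6375. Its probe was spotted 10 times per array, and the SD of the log2 signals of these spots lay between 0.0470 and 0.0650. Scaled signals were lower with tetracycline in both lines, by 1.63-fold in TR9_MeTA14 (log2 -0.70) and 1.54-fold in TR15_MeTA5 (log2 -0.62). By the brightest probes, FOXA1 was the member with the most alike changes in the lines, 0.08 apart on the log2 scale. The SD of replicate spots is for 1 ratio of 2 arrays and does not measure the spread of such a difference.

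HOXB13 had signals of 21980, 8813, 17700 and 16445. The TR9_MeTA14 +Tet array stood below the other three. The scaled signal was 3.14-fold lower with tetracycline in TR9_MeTA14 (log2 -1.65) and 1.59-fold lower in TR15_MeTA5 (log2 -0.67). In TR9_MeTA14, 6.15% of 15076 genes, bounds included, had a lower log2 change than HOXB13, and in TR15_MeTA5 7.72% of 14342 genes did.

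GRHL2 had signals of 1240, 637, 557 and 524 with its brighter probe, and it was 2.45-fold lower with tetracycline in TR9_MeTA14 (log2 -1.29) and 1.57-fold lower in TR15_MeTA5 (log2 -0.65). Its dimmer probe had signals of 97.8, 59.1, 65.3 and 49.0. That probe was lower by log2 -1.06 and -0.98, so both probes were lower in both lines. The changes in the 2 lines were 0.64 apart with the brighter probe and 0.08 apart with the dimmer one.

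GATA2 had signals of 1473, 972, 792 and 1105. It was 1.91-fold lower with tetracycline in TR9_MeTA14 (log2 -0.93), while in TR15_MeTA5 the scaled difference was log2 -0.08, smaller than the SD of replicate spots. The direction in TR15_MeTA5 is not settled, since scaling on the spike-in probes turned it to 0.28. GATA2 was thus lower in one line, and the median log2 change of 14342 genes in TR15_MeTA5 was itself -0.16.

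NR3C1 had signals of 5.72, 6.28, 4.12 and 111 with its brighter probe. Only the TR15_MeTA5 +Tet array was well above background. The scaled signal there was at least 4.86-fold higher than in TR15_MeTA5 -Tet, as a bound against the lowest signal well above background on the -Tet array (log2 2.28). With normexp and quantile normalization the log2 bound was 1.27. The dimmer probe, with signals of 3.26, 2.95, 3.22 and 20.5, was also well above background on that array alone, and its bound was under 1, so it gave no fold. In TR9_MeTA14 neither probe gave a fold, and whether NR3C1 differs there was not detectable at these signals.

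SPOP had signals of 972, 1195, 594 and 715. After scaling it differed by log2 -0.03 in TR9_MeTA14, within the SD of replicate spots, and by log2 -0.30 in TR15_MeTA5. Spike-in scaling turned both to 0.08 and 0.07, so SPOP had no direction that held under each scaling.

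**Figure D1:**
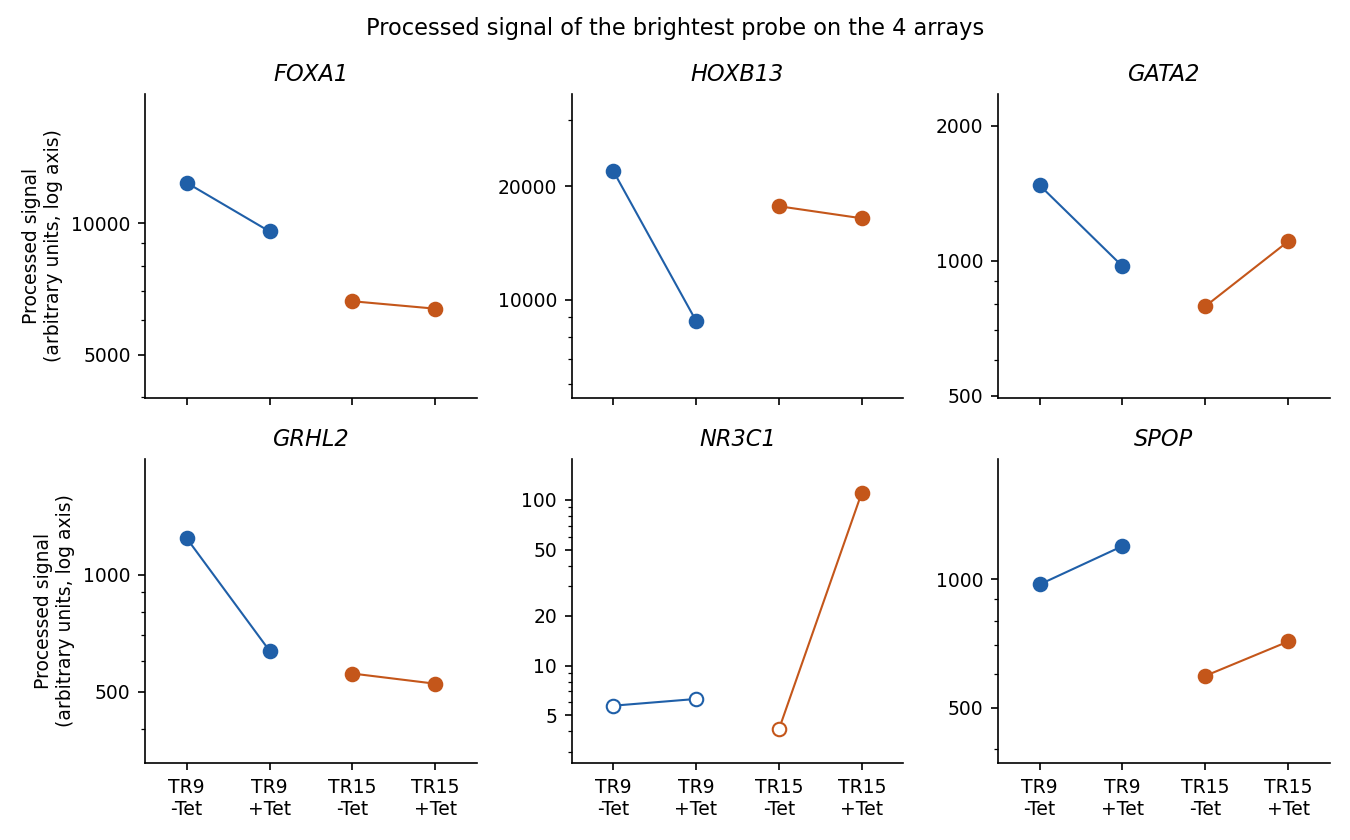
Processed signal (arbitrary units, log axis) of the brightest probe of each gene on the 4 arrays, 1 panel per gene with its own axis. Filled points were well above background and open points were not, and lines join the -Tet and +Tet arrays of a line. HOXB13 is lowest on the TR9_MeTA14 +Tet array, at 8813, and NR3C1 is above background only on the TR15_MeTA5 +Tet array, at 111.

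Set against all genes, 2 of the 5 members with a fold in TR9_MeTA14 were at least 2-fold lower, HOXB13 and GRHL2, where 15.1% of all genes were. None of the 5 was at least 2-fold higher there, where 16.8% of all genes were. In TR15_MeTA5 none of the 6 was at least 2-fold lower (2.21% of all genes) and 1, NR3C1, was at least 2-fold higher (9.78% of all genes). No member was at least 2-fold lower in both lines, where 0.837% of 13976 genes were, or at least 2-fold higher in both, where 8.21% were. The 5 members with a fold in both lines had log2 changes below 0 in both, as did 6623 of 13976 genes. The members' median log2 change was -0.93 in TR9_MeTA14 and -0.46 in TR15_MeTA5, beside -0.06 and -0.16 over all genes. The members' TR15_MeTA5 median covers all 6 members with the NR3C1 bound, and over the 5 with a fold in both lines it was -0.62. With 6 genes, the counts are small and describe these genes.

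**Figure D2:**
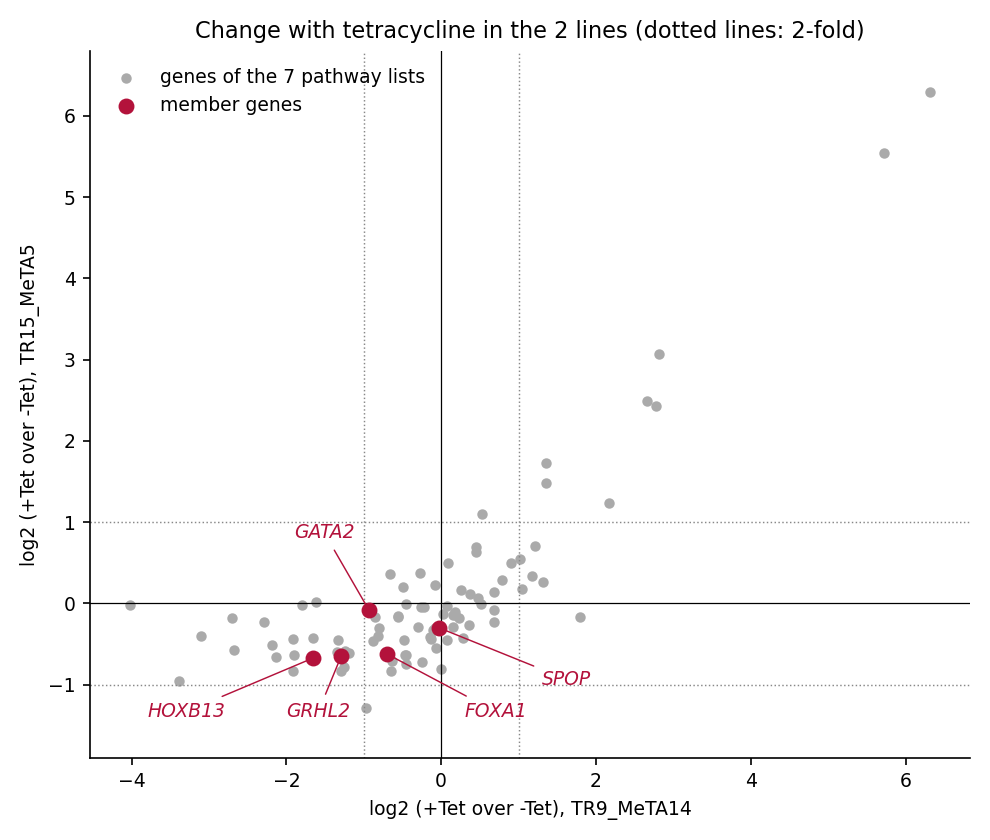
Log2 change with tetracycline in TR9_MeTA14 (x axis) and in TR15_MeTA5 (y axis), 1 point per gene. Red points are the 5 members with a fold in both lines, grey points are genes of the 7 pathway lists, and dotted lines mark 2-fold. The red points lie below 0 on both axes, between -1.65 and -0.03 in TR9_MeTA14 and between -0.67 and -0.08 in TR15_MeTA5.

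The arrays were scaled on their 75th percentile, and the spike-in probes were tried as another base. Over the 19303 probes flagged above background on every array, the median log2 change in TR9_MeTA14 was -0.15, and -0.04 after spike-in scaling. The TR15_MeTA5 median of the same probes moved from -0.18 to 0.18. Relative to that median, FOXA1 was lower by log2 -0.55 and -0.44 in the lines, HOXB13 by -1.50 and -0.49, and GRHL2 by -1.14 and -0.47. GATA2 lay at -0.78 and 0.10 and SPOP at 0.12 and -0.11. FOXA1, HOXB13 and GRHL2 were thus lower than the median probe in both lines, and GATA2 in TR9_MeTA14.

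**Figure D3:**
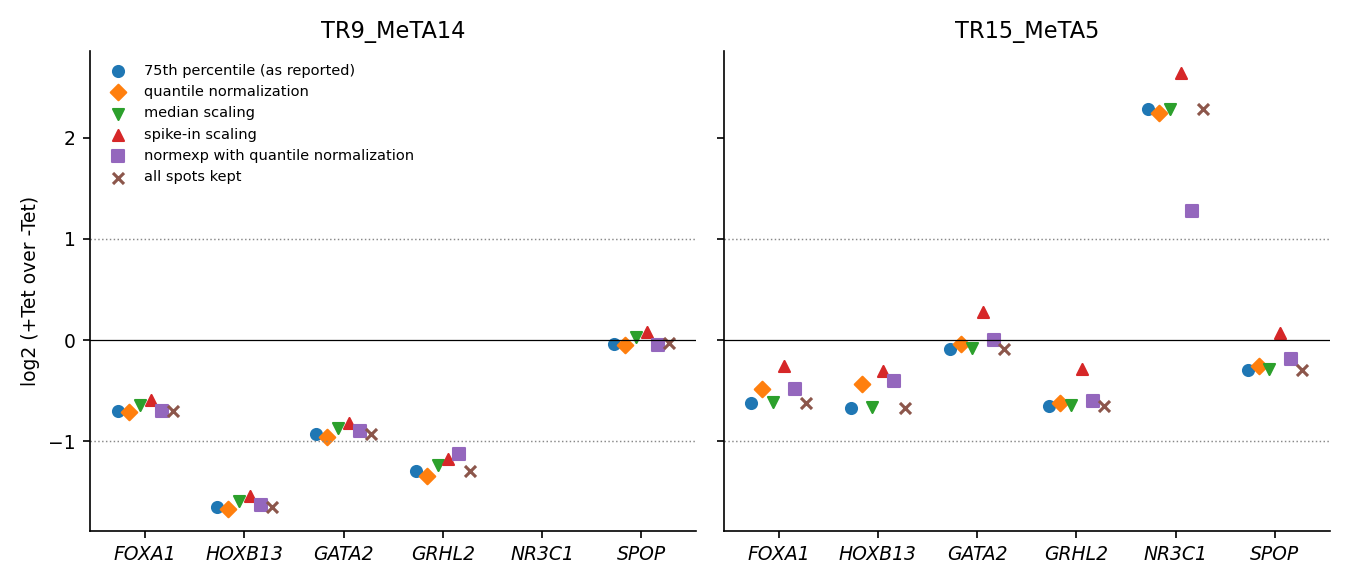
Log2 change with tetracycline (y axis) of each member in TR9_MeTA14 (left) and TR15_MeTA5 (right) under 6 ways of scaling or background correction, 1 symbol per setting. Dotted lines mark 2-fold, NR3C1 values are bounds and NR3C1 has no value in TR9_MeTA14. FOXA1, HOXB13 and GRHL2 lie below 0 under each setting in both lines, while GATA2 in TR15_MeTA5 and SPOP reach 0 or above under some.

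The effect of tetracycline over both lines was tested with limma, with the line as a block. Of 22810 probes tested, 2.6% were higher and 0.0132% lower at an adjusted p under 0.05, and none of the 5 members tested passed. HOXB13 was lower by log2 -1.16 ± 0.35 (SE; limma adjusted p = 0.224) and GRHL2 by -0.97 ± 0.29 (limma adjusted p = 0.222), lower in 2 of 2 lines. The dimmer GRHL2 probe gave -1.02 ± 0.30 (limma adjusted p = 0.218). FOXA1 gave -0.66 ± 0.26 (limma adjusted p = 0.264), GATA2 -0.51 ± 0.32 (limma adjusted p = 0.416) and SPOP -0.17 ± 0.26 (limma adjusted p = 0.738). At an unadjusted p under 0.05, 2 members passed, HOXB13 and GRHL2, beside 4448 probes, of which 1826 were lower. NR3C1 was well above background on 1 array and was not tested. The fit has 1 residual degree of freedom, so a missed threshold does not show that a gene did not differ.

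**Figure D4:**
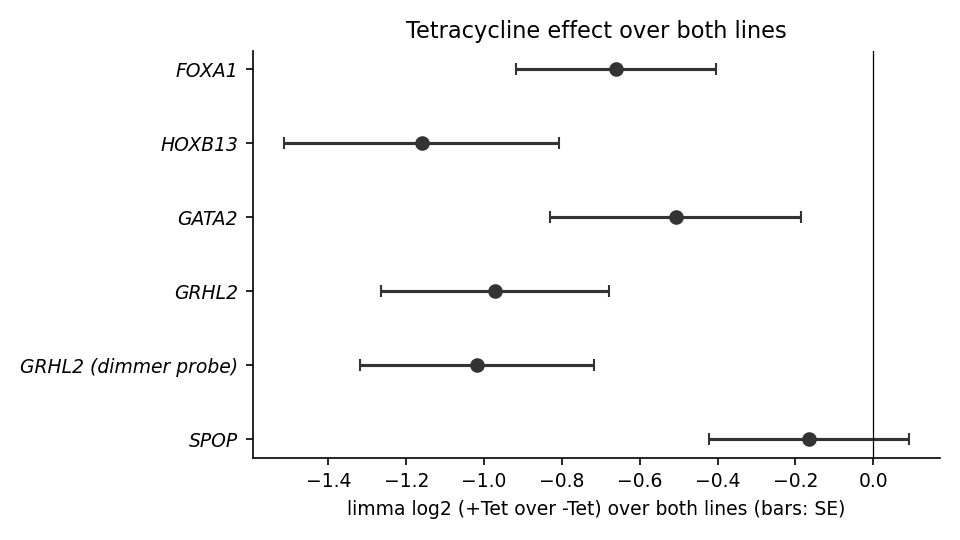
Limma log2 change with tetracycline over both lines (x axis) for the 6 probes of 5 members that were tested, with bars for 1 SE. HOXB13, at -1.16, lies lowest and SPOP, at -0.17, has bars that cross 0.

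Between the lines, with the arrays scaled on their 75th percentile, HOXB13 was 2.67-fold higher in TR15_MeTA5 +Tet than in TR9_MeTA14 +Tet (log2 1.42) and 1.36-fold higher without tetracycline (log2 0.44). NR3C1 was at least 11.4-fold higher in TR15_MeTA5 +Tet than in TR9_MeTA14 +Tet with its brighter probe (log2 3.51) and at least 2.11-fold with its dimmer one. That log2 bound was 1.40 with normexp and quantile normalization and 2.30 as the mean over both probes. These were the 2 of 6 members at least 2-fold higher in TR15_MeTA5 with tetracycline, where 14.2% of all genes were, and none was at least 2-fold lower, where 10.4% were. Without tetracycline none of the 5 members with a fold was at least 2-fold higher (8.17% of all genes) or lower (5.19%). These counts depend on the scaling. Under spike-in scaling the HOXB13 difference was 0.63 with tetracycline and turned to -0.60 without it, NR3C1 was at 2.73, and SPOP, at -1.01 with tetracycline, was past 2-fold lower. Without tetracycline, FOXA1, GATA2 and GRHL2 were then past 2-fold lower as well, at log2 -1.18, -1.18 and -1.44. A difference within 1 condition has 1 array on each side and no test.

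Of 20 other lineage transcription factors, 19 gave a fold in both lines. At least 2-fold higher in both were 3 of them (8.21% of all genes), and none was lower in both (0.837%). In TR9_MeTA14, 7 of the 19 were at least 2-fold lower (15.1% of all genes) and 5 higher (16.8%). In TR15_MeTA5 none was at least 2-fold lower (2.21%) and 3 were higher (9.78%). The list's median log2 changes were -0.14 and -0.16. OTX1, a homeobox factor, had signals of 222, 1769, 57.0 and 475 and rose 6.33-fold and 5.64-fold (limma adjusted p = 0.0286), though a dimmer OTX1 probe gave bounds of at least 1.96-fold and 1.17-fold only. PBX3, a cofactor of HOX proteins, was 4.50-fold and 2.35-fold higher (limma adjusted p = 0.113). SOX9, a factor of progenitor cells, was 2.55-fold higher and at least 3.33-fold higher (limma adjusted p = 0.170). The highest of the list in mean scaled log2 signal, CREB3L4 and XBP1, which act in secretory cells, had log2 changes of -1.25 and -0.78 and of -1.34 and -0.59.

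Among 15 relatives of the members, 9 gave a fold in both lines. Of these, 2 GATA factors of the endoderm were at least 2-fold higher in both (8.21% of all genes). GATA5 had signals of 4.48, 1030, 4.43 and 1064, at least 52.9-fold and at least 46.6-fold higher (limma adjusted p = 0.0139). GATA6 had signals of 77.0, 682, 27.5 and 342, 7.04-fold and 8.40-fold higher (limma adjusted p = 0.0252). GATA2 had the opposite sign to GATA5 and GATA6 in TR9_MeTA14, but the other GATA genes did not rise likewise. GATA4 had log2 changes of 0.23 and -0.18 with its brightest probe, and another GATA4 probe was at least 2.82-fold lower in TR9_MeTA14. GATA1 gave no fold. GATA3 gave a fold in TR15_MeTA5 only, at least 2.07-fold higher. HOXC13 and GRHL1, the relatives with the highest mean scaled log2 signal, had log2 changes of 0.53 and 1.10 and of -0.46 and -0.64.

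Of 12 genes known as glucocorticoid receptor targets, none was at least 2-fold higher or lower in both lines (8.21% and 0.837% of all genes). None of the 12 passed limma's threshold. In TR9_MeTA14, 5 were at least 2-fold lower (15.1% of all genes) and 1 was higher (16.8%), CRISPLD2, at 2.26-fold. In TR15_MeTA5, where NR3C1 came above background, 1 was at least 2-fold lower, MT2A (2.21% of all genes), and none was higher (9.78%). With 12 genes, these counts are small beside those shares. MT2A, a metallothionein, had log2 changes of -0.96 and -1.29. TSC22D3, the leucine zipper known as GILZ, had signals of 18854, 1468, 5126 and 7463 and log2 changes of -4.01 and -0.02. FKBP5, a cochaperone of steroid hormone receptors chosen after its values were seen, had -3.38 and -0.96. Several of these genes also respond to androgen.

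**Figure D5:**
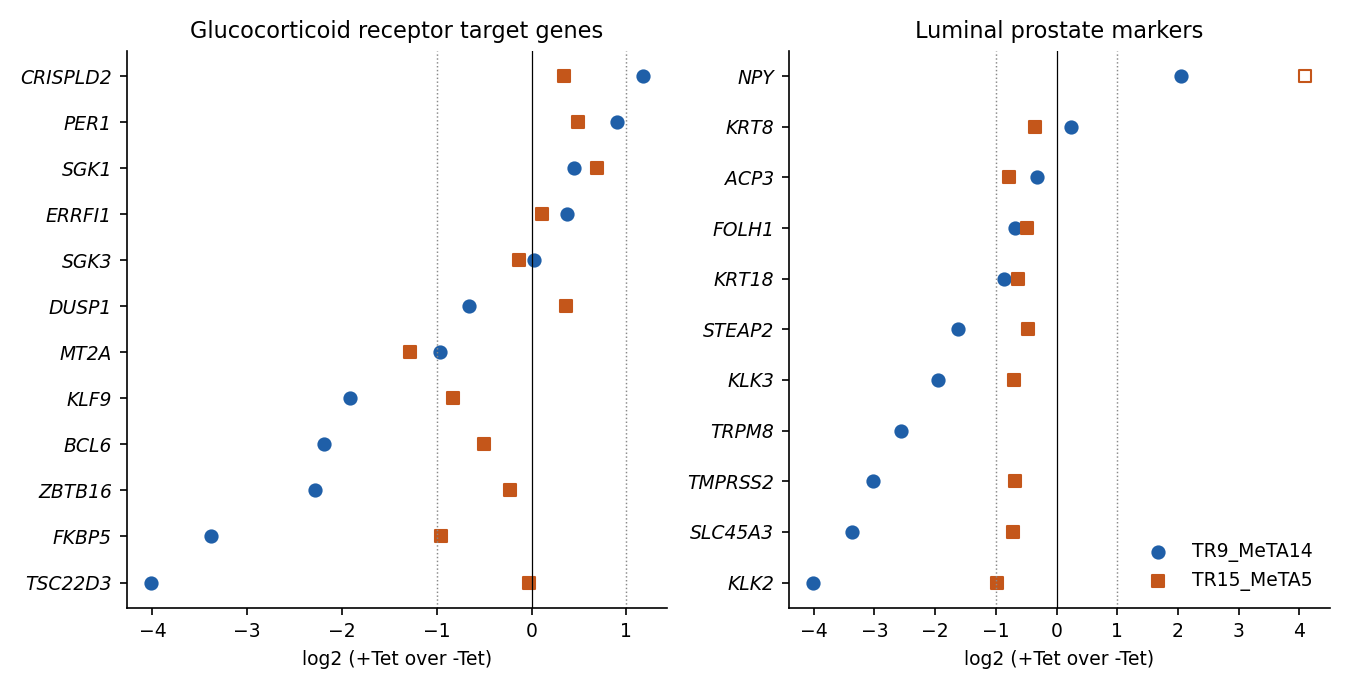
Log2 change with tetracycline (x axis) in TR9_MeTA14 (circles) and TR15_MeTA5 (squares) for the glucocorticoid receptor target list (left) and the luminal marker list (right), 1 row per gene. Dotted lines mark 2-fold and open symbols are bounds. TSC22D3 and KLK2 lie near -4 in TR9_MeTA14, at -4.01 and -4.00, and at -0.02 and -0.98 in TR15_MeTA5.

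The luminal marker list was lower in TR9_MeTA14, with 6 of 11 genes at least 2-fold lower (15.1% of all genes) and a median log2 change of -1.62. In TR15_MeTA5 none of 10 was at least 2-fold lower (2.21% of all genes), and the median was -0.66. The medians over all genes were -0.06 and -0.16. KLK3 had log2 changes of -1.95 and -0.70, and KRT18, a luminal keratin, -0.86 and -0.64. The summed scaled signal of the 11 luminal genes was 477, 168, 632 and 398. KLK3 is the brightest of them, and the sums do not stand for each gene. None of the 11 passed limma's threshold. HOXB13 and GRHL2 were at least 2-fold lower in the same line, and the part of the luminal markers in this was not tested. Each array held bulk RNA of 1 LNCaP-derived line and not of a tissue with several cell types. Fewer cells with these markers and less of their RNA per cell cannot be told apart there. The single luminal marker at least 2-fold higher in both lines was NPY.

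Of 15 epithelial genes known as GRHL targets with a probe, 2 rose over both lines, CDH3 among them, and none was at least 2-fold lower in both. In TR9_MeTA14, where GRHL2 was 2.45-fold lower, 3 of the 15 were at least 2-fold lower by their brightest probes (15.1% of all genes). These were EPCAM by 8.57-fold, ERBB3 by 3.15-fold and ESRP2 by 2.37-fold. None was at least 2-fold lower in TR15_MeTA5 (2.21% of all genes). The ERBB3 probes differed. Another one, with signals of 758, 1092, 466 and 685, gave log2 changes of 0.19 and -0.01. A dimmer ERBB3 probe was at least 2.52-fold and at least 1.47-fold lower. CDH3, which encodes P-cadherin, had signals of 18.9, 1892, 12.3 and 1784, at least 79.5-fold and 78.2-fold higher (limma adjusted p = 0.0139). GRHL2 itself was lower on both probes in both lines. CLDN4 and PRSS8, the highest of the list in mean scaled log2 signal, a tight junction protein and a membrane protease, had log2 changes of -0.80 and -0.30 and of 0.36 and -0.27.

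Of 7 neighbours of members with a probe, 4 gave a fold in both lines. PRAC1, which lies beside HOXB13, had signals of 19697, 7151, 11404 and 16685 and log2 changes of -1.79 and -0.02. HOXB6 was 2.55-fold and 2.79-fold higher (limma adjusted p = 0.0863). HOXB13 and PRAC1 were both lower in TR9_MeTA14, and PRAC1 differed by less than the SD of replicate spots in TR15_MeTA5. RPN1, which lies near GATA2, had log2 changes of -0.05 and -0.33.

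For SPOP, CUL3, the scaffold of its ligase, had log2 changes of -0.30 and -0.29 and RBX1, the ring protein, -0.07 and -0.30. None of 13 ligase partners and substrates with a fold in both lines was at least 2-fold higher or lower in both lines. BRD2, a bromodomain substrate, had -0.56 and -0.15. Of 15 receptor cofactors and chaperones with a fold in both lines, none was at least 2-fold changed in both lines either. HSP90AA1, a chaperone of steroid hormone receptors, had log2 changes of 0.18 and -0.14.

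Taking the 7 pathway lists as 1, 8 genes of 87 with a fold in each line passed 2-fold upwards in each and none downwards, beside 8.21% and 0.837% of all genes. By limma 5 of 91 genes rose, CDH3, GATA5, GATA6 and OTX1 among them. Of the other cell type markers, 3 of 6 basal, 3 of 8 neuroendocrine and 4 of 7 stromal genes were well above background on at least 1 array. The summed scaled signal of the basal list was 0.690, 2.66, 0.593 and 1.85, and that of the stromal list 2.04, 4.73, 1.72 and 5.29. These sums do not stand for each gene. Of 3 basal genes with a fold, only ITGB4 was at least 2-fold higher in either line. KRT15 had log2 changes of 0.15 and -0.04, and CD44 -0.02 and at least 0.36. Of 4 stromal genes with a fold, only VIM was at least 2-fold higher in both lines. The part of these markers in the members' values was not tested. ITGB4, a hemidesmosome integrin, and VIM, an intermediate filament of mesenchymal cells, were 5.33-fold and 6.67-fold and 9.93-fold and 12.5-fold higher (limma adjusted p = 0.0302 and 0.0176). CHGA, a neuroendocrine granule protein, was at least 4.06-fold and 14.9-fold higher (limma adjusted p = 0.0375). KRT15, ENO2, COL1A1 and DES were well above background on all 4 arrays and INSM1, COL1A2 and LUM on none.

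HOXB13 and GRHL2 were the members above background on all 4 arrays that spanned at least 1 log2 unit. Among 12693 other genes, those with the closest profile over the 4 arrays to HOXB13, by Euclidean distance of centred log2 signals, were IL15RA (0.0679), HOMER2 (0.0691) and SLC12A8 (0.0732). HOMER2 had signals of 814, 323, 647 and 638. For GRHL2 the closest were H2AZ1 (0.0366), CUL4B (0.0414) and RLIG1 (0.0419), where CUL4B had 702, 361, 309 and 287. These are distances over 4 arrays and are given as a description.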

How the data were processed

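RNA of 4 cultures, 1 per condition, was hybridized by the authors to one-color Agilent arrays on 1 slide. The authors deposited the intensity of every spot. Per the file headers the software was Agilent Feature Extraction 10.7.3.1, while the submitters' processing notes name 9.5.1. The processed intensity is background-subtracted and not normalized between arrays. A deposited series table held the same values in all 4 columns and was not used further.

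After outlier spots were left out (255 to 344 per array), log2 intensities were averaged per probe, and the 75th percentile over 34127 probes of each array was subtracted. A probe was well above background when at least 50% of its spots had the scanner's flag. Where the dimmer array lacked the flag, the fold is a lower bound against the higher of its own signal and the lowest signal with the flag on that array (13.9 to 19.2), and no fold is given when both lacked it or the bound was under 1. Probes were paired with genes through RefSeq accessions (25422 probes with 1 gene), and the arrays' design was annotated on hg19, so coordinates are given only for the RefSeq windows. The number of arrays limits the precision.

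Limma 3.58.1 in R 4.3.3 fitted tetracycline with the cell line as a block and an intensity trend, and p-values were adjusted by Benjamini-Hochberg over the probes that 2 or more arrays had well above background. The script was tested on simulated data. Nothing in the labels says that cultures were replicated. The p-values rest on how far the tetracycline change differs between the lines, not on a spread between cultures. Limma draws that spread towards the spread of other probes of like intensity, so a standard error is not that of a single gene alone. Python 3.11.15 was used for the rest. Genes named are the members, list genes at least 2-fold changed the same way in both lines, the 2 genes of each list with the highest mean scaled log2 signal and, by distance, the 3 nearest profiles of members spanning at least 1 log2 unit. Other list genes named, among them EPCAM, ERBB3, ESRP2 and CRISPLD2, were chosen after their values were seen. Values of some list genes are not reported here. Members, lists and settings were chosen with earlier results of these data known. Alternatives were other scalings, normexp with an offset of 50, all spots, other filters and cut-offs, the mean over probes, plain ratios, no block and no trend.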

Additional observations from a re-analysis of the deposited data

Results flagged for a closer look

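ACTA2, which encodes smooth muscle actin and was on the stromal marker list, moved in opposite directions in the lines. Its signals were 63.0, 32.4, 56.7 and 386 in TR9_MeTA14 -Tet and +Tet and TR15_MeTA5 -Tet and +Tet, with log2 changes of -1.29 in TR9_MeTA14 and 2.20 in TR15_MeTA5. The difference was not tested, since each line has 1 array per condition.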

How the results depend on the processing

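No paired analysis was possible because each group has 1 array, beyond the limma fit itself, which pairs the arrays by cell line. Leaving out an array leaves no residual degrees of freedom. Of 11 log2 changes of members, none called at 2-fold turned sign under any alternative, and spike-in scaling moved all 11 by more than the SD of replicate spots, normexp with quantile normalization 6, quantile normalization 2 and median scaling 0. The limma value of SPOP turned from -0.17 to 0.0736 with spike-in scaling. No member passed limma's adjusted threshold under any of 11 settings (adjusted p of GRHL2 from 0.151 to 0.372 and of HOXB13 from 0.164 to 0.495). At 3-fold and 1.5-fold, 1 and 4 members were lower in TR9_MeTA14, and at 1.5-fold 3 were lower in TR15_MeTA5 and 3 in both lines. With a filter on all 4 arrays 0 members were higher in TR15_MeTA5.

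Of the 8 list genes higher in both lines, 4 remained with a filter on all 4 arrays and 5 at 3-fold, and 6 with normexp. List genes lower in both lines numbered 1 with the mean over probes and 12 at 1.5-fold. The share of all genes higher in TR9_MeTA14 was 10.8% at 3-fold. In TR15_MeTA5 it was 6.37% with normexp, 6.36% with a filter on all 4 arrays, 6.19% at 3-fold and 14.8% at 1.5-fold, and in both lines 5.22% at 3-fold. The share lower in TR9_MeTA14 was 9.66% with normexp, 6.67% at 3-fold and 27.1% at 1.5-fold. In TR15_MeTA5 it was 0.814% with spike-in scaling, 0.551% with normexp, 1.41% with a filter on all 4 arrays, 0.565% at 3-fold and 11.3% at 1.5-fold, and in both lines 0.250%, 0.200%, 0.114% and 7.06% with spike-in scaling, normexp, 3-fold and 1.5-fold. Probes higher by limma numbered 593, and 1226 with spike-in scaling, 1269 without a filter and 182 with a filter on all 4 arrays. Probes lower numbered 3, and 10, 5, 9 and 1 with quantile, median and spike-in scaling and normexp, 56 without a filter, 0 with a filter on all 4 arrays and 11 without the trend. The cause of these shifts was not tested.

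A further setting, the flag in more than 50% of a probe's spots, was chosen after seeing the data and moved no member's value by more than the SD of replicate spots. Low signals limit NR3C1, which has no level above background on 3 of 4 arrays.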
